A study of Mus musculus with 20 samples.

Results

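The genes examined here were 40 genes that type I interferon is known to induce, taken by gene symbol. Each of the 40 symbols matched exactly 1 of the 59311 annotated genes of the count table. Type I interferons bind a receptor made of IFNAR1 and IFNAR2 on nearly every cell, and the kinases JAK1 and TYK2 then start a signal that brings a complex with STAT2 and IRF9 into the nucleus. This complex binds the interferon-stimulated response element near the start of its target genes. The products bind or degrade viral RNA, block membrane fusion, sense nucleic acids and sustain or limit the signal itself, and monocytes and macrophages also hold many of them at a resting level. In inflamed tissue, the same genes are often read as a sign of interferon exposure.

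RNA was sequenced from monocyte-derived macrophages (MoMac) of male C57BL/6 mice (C57BL/6J in the study's methods) with liver fibrosis caused by the hepatotoxin carbon tetrachloride (CCl4). All mice, controls included, received 0.6 ml/kg of CCl4 for 4 weeks and were studied 2 days after the last dose. The 5 mice numbered 16 to 20 were given Ac-6-FP at 0.25 mg/kg, an MR1 ligand that holds mucosal-associated invariant T (MAIT) cells inactive, and the 5 mice numbered 11 to 15 its vehicle (DMSO in PBS). Ly6Chi and Ly6Clo MoMac were sorted from liver as Ly6G-, CD11c-, CD3-, CD11b+ and F4/80+ cells, so that the 20 libraries form 4 groups of 5. The labels carry each number from 11 to 20 once in each subset, and libraries that share a number were taken as those of 1 mouse. Ac-6-FP was given to the whole animal, and the sorted cells were not exposed to it alone in culture. No allele was altered by design in any group, beyond what the strain itself carries.

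Reads on genes numbered 5693049 to 18682437 per library, and values are normalized counts, that is, read counts divided by a size factor for each library. The Ly6Clo library of vehicle mouse 13 stood apart, with the lowest total and 5343 genes above 0 against 9017 to 15766 in the others, and 24 of the 40 genes were at 0 in it against 1 to 13 elsewhere. Counts and medians are also given without it, as are single values of the 40 genes where leaving it out moved them by more than 1.5 times. Ly6c2, which encodes the sorting antigen, ranged from 4930.2 to 10012 in Ly6Chi and from 284 to 1014 in Ly6Clo libraries, and Ccr2 and Treml4 differed between the subsets with log2 differences of 1.40 and -2.57. Treml4 is 1 of 4 markers of Ly6Clo monocytes, of which Ace and Treml4 were called lower in Ly6Chi. The log2 difference was below 0 for 3 of the 4. Nr4a1, of the same markers, was not called, with 1666 to 16963 in Ly6Chi and 554 to 20924 in Ly6Clo libraries. Itgam, the gene for CD11b, was at 2.09 in the Ly6Clo library of mouse 13 and at 658 or more in the other 19. The Ly6Clo libraries also carried transcripts of natural killer (NK) cells. The summed level of the 5 T and NK cell markers was 0 to 139.7 in Ly6Chi and 5816 to 14437 in Ly6Clo libraries, nearly all of it Klrb1c and Ncr1 in the latter. Of the T cell markers, Cd3e was above 0 in 2 of the 20 libraries (up to 11.1), Cd3g in 7 (up to 226) and Cd3d in 10 (up to 139.7).

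The interferon-stimulated response element was looked for in the sequence around the starts of these genes. The RefSeq promoters (build GRCm38.p6, the same assembly as the mm10 coordinates of the count table), 250 bases before to 50 after each start, were searched on both strands for its core, GAAA followed by any 2 bases and another GAAA. Promoters were found for 28 of the 40 genes, and the core was present in 14 of the 28, namely Bst2, Eif2ak2, Ifih1, Ifit1, Ifit3, Ifitm3, Isg15, Oas1a, Oas3, Rsad2, Slfn5, Slfn8, Stat2 and Trim30a. Counted by promoter, 16 of 34 (47.1%) held it, against 1131 of all 32851 (3.44%). The stretches below show the element in Oas1a, which differed between the subsets, and in Isg15, Ifit1 and Bst2, which did not pass the test and were chosen for display after their values were known. They run 5′ to 3′ in the direction of the gene, all before the start, with the matches in capitals, as overlapping repeats in Oas1a, Isg15 and Bst2 and as a separate pair on the opposite strand in Ifit1.
Oas1a (chr5:120907526-120907585, minus strand): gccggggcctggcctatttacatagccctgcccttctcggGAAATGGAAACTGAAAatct
Isg15 (chr4:156200835-156200936, minus strand): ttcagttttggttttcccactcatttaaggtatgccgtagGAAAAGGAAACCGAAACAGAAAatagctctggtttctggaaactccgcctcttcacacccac
Ifit1 (chr19:34640745-34640853, plus strand): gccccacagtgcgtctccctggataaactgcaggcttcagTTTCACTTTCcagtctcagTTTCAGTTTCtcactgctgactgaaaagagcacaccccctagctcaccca
Bst2 (chr8:71537547-71537642, minus strand): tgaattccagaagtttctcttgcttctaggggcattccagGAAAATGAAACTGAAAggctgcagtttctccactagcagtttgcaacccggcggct
In Ifitm3 both matches lay within the first 50 bases after the start, and in Xaf1 the core was not in the window searched. For Dhx58, Ifi204, Ifi27l2a, Ly6e and Zbp1, the other 5 genes that differed between the subsets, no promoter was matched.

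The 40 genes were not expressed at a common level. Of them, 13 were above 0 in all 20 libraries (Bst2, Ifi204, Ifi27l2a, Ifi35, Ifitm3, Isg15, Ly6e, Oas1a, Oasl2, Trim30a, Usp18, Xaf1 and Zbp1), and the membrane proteins led. Per kilobase of exon, the mean normalized count was 40939 for Ifitm3, which blocks fusion of virus with endosomal membranes, 9721 for Ly6e, which limits coronavirus entry, 6779 for Ifi27l2a, of the ISG12 family of small membrane proteins, 1422 for the tetherin gene Bst2 and 1166 for Oas1a. Before division by length, the mean of Ly6e (36782) was above that of Ifitm3 (27757). The lengths cover all GENCODE M21 exons, whereas the authors counted reads over constitutive parts only. At the other end, Mx2 and Ifi44 were at 0 in 17 libraries and Oas2 in 15, and their means per kilobase were 2.29, 1.71 and 0.554. Oas2 did not reach a mean of 10 in any group and was not tested, which left 39 of the 40 genes among 17248 tested. The filter keeps a gene through its highest group, so counts over these 39 are not counts over all 40.

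**Figure D1:**
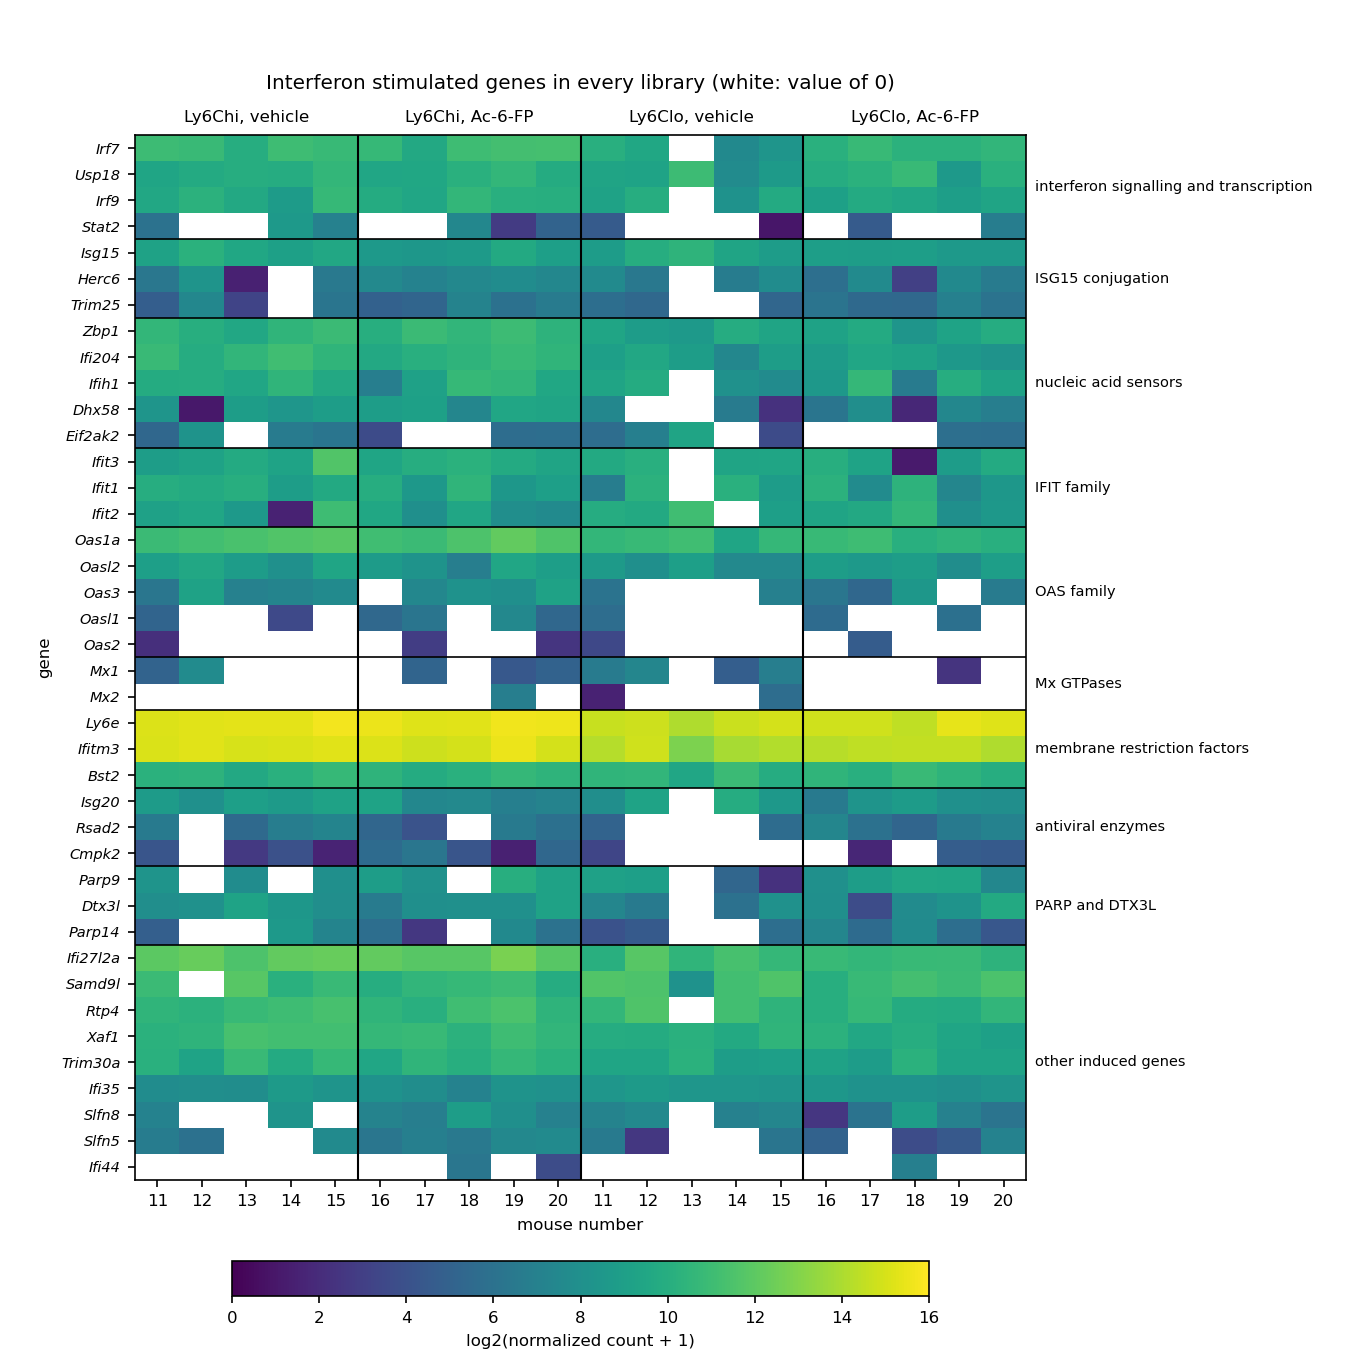
Levels of the 40 genes (rows, ordered by role and then by mean) in the 20 libraries (columns, by mouse number), as log2(normalized count + 1), with white cells for a value of 0. Ly6e and Ifitm3 are the brightest rows, and the Ly6Clo column of vehicle mouse 13 has 24 white cells.

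The first question was whether Ly6Chi MoMac, the cells recently recruited from blood, and Ly6Clo MoMac differ in these genes. Compared within each of the 10 mice, 8 of the 39 genes tested were higher in Ly6Chi MoMac and 0 were lower (limma on log2(normalized count + 1), Benjamini-Hochberg adjusted p under 0.05 over all genes tested). Across all genes, 1.76% were called higher and 3.44% lower in Ly6Chi MoMac. The log2 difference was above 0 for 30 of the 39 genes (76.9%, against 48.8% of all genes), with a median of 0.78 against -0.03 for all genes tested. Of the 39, 13 had an unadjusted p under 0.05 (33.3%, against 16.7% of all genes). Without the Ly6Clo library of mouse 13 the same 8 genes were called, against 2.28% of all genes called higher, 27 of the 39 log2 differences were above 0, 12 had an unadjusted p under 0.05 (against 19.2% of all genes), and the median was 0.53 against -0.17. With edgeR on the reads behind the values, 6 of the 8 were called, Dhx58 and Oas1a being lost, and 1.16% of all genes were called higher. In bulk libraries such as these, fewer cells of a type and less RNA per cell cannot be told apart. The part of the NK cell transcripts in the Ly6Clo libraries in these differences was not tested.

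Among the nucleic acid sensors, 3 of 5 genes were higher in Ly6Chi MoMac. Ifi204 (chr1:173747290-173766944, mm10), a DNA sensor of the p200 family, had the clearest separation. In Ly6Chi MoMac, Ifi204 reached normalized counts of 1812, 943, 1500.1, 2154 and 1438 in the vehicle mice 11 to 15 and of 814, 1098, 1351, 1789 and 1442 in the Ac-6-FP mice 16 to 20. In Ly6Clo MoMac of the same mice, in the same order, the values were 513, 785, 478, 172 and 472, and 444, 713, 594, 367 and 299.6. Every Ly6Chi library lay above every Ly6Clo library, which was the case for 1 of the 39 genes and for 0.429% of all genes tested. The fold change was 3.07 and the log2 difference 1.62 ± 0.31 (SE) over 10 mice (limma adjusted p = 0.00782). Ifi204 has close paralogs in the same cluster, and how reads shared among them were counted is not given in the sources used here.

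Zbp1 (chr2:173206612-173218922), which binds Z-form nucleic acids and can start necroptosis, was higher in the Ly6Chi library of 10 of 10 mice. Normalized counts of Zbp1 in Ly6Chi MoMac were 1572, 1053, 780.05, 1409 and 1908 in vehicle mice 11 to 15, and 1048, 1899.8, 1494, 1995 and 1313 in Ac-6-FP mice 16 to 20. In Ly6Clo MoMac of the same mice, in the same order, the values were 678, 467, 386, 939.7 and 656, and 587, 877, 329, 617 and 939. The ranges of the subsets overlapped, because the Ly6Chi value of mouse 13 fell below the highest Ly6Clo values, but within every mouse the order was the same. The log2 difference was 1.18 ± 0.21 (SE) (adjusted p = 0.00439), a 2.27-fold change.

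Dhx58 (chr11:100694704-100704271), or LGP2, tunes RNA sensing by the helicases RIG-I and MDA5. Normalized counts of Dhx58 in Ly6Chi MoMac were 327, 1.07, 476, 339 and 484 in vehicle mice 11 to 15, and 489, 556, 160.5, 718 and 640.1 in Ac-6-FP mice 16 to 20. Their counterparts from Ly6Clo MoMac read 171, 0, 0, 98.7 and 3.78 under vehicle, and 73.8, 243, 2.39, 169.6 and 113 under Ac-6-FP. Values in Ly6Clo MoMac of mice 12, 13, 15 and 18 were at or near 0, where a value of 0 still allows up to 3 reads, and in mouse 12 both libraries were so. The log2 difference was 3.34 ± 0.83 (SE) (adjusted p = 0.0356) with all 10 mice in the same direction, but its size depends on the constant added before the logarithm. The call was lost in 13 of 20 alternative settings, with adjusted p up to 0.182. The other sensors, Ifih1, which encodes MDA5, and Eif2ak2, the RNA-activated kinase PKR, had log2 differences of 1.60 ± 0.90 (SE) and 0.43 ± 1.21 (SE) and did not pass. With the Ly6Clo library of mouse 13 left out these were 0.73 ± 0.54 (SE) and 1.52 ± 0.85 (SE).

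The membrane restriction factors held the most abundant genes of the list, and 2 of 3 were higher in Ly6Chi MoMac, Ifitm3 (chr7:141009590-141010759) and Ly6e (chr15:74955051-74959905). For Ifitm3, the Ly6Chi libraries of vehicle mice 11 to 15 gave normalized counts of 34316, 39442, 33820.1, 34644 and 39452, and those of Ac-6-FP mice 16 to 20 gave 36817, 28766, 31849, 47530.4 and 31758. Values in Ly6Clo MoMac were 19141, 29213, 7223, 15511 and 18585 (vehicle), and 19878, 22306, 23537, 23973 and 17376 (Ac-6-FP). The Ly6Clo values of Ifitm3 lay below the Ly6Chi value of their own mouse in 10 of 10 mice, and overlapped the Ly6Chi range only through the Ly6Clo library of mouse 12. The fold change was 1.90, with a log2 difference of 0.93 ± 0.15 (SE) (adjusted p = 0.00173).

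Ly6e showed the smallest of the called differences with the least spread. In Ly6Chi MoMac, Ly6e reached normalized counts of 36573, 39127, 41622, 42388 and 54698 in the vehicle mice 11 to 15 and of 47644, 38007, 39385, 51694 and 48569 in the Ac-6-FP mice 16 to 20. Their counterparts from Ly6Clo MoMac read 26309, 28672, 17863, 27148 and 32443 under vehicle, and 29380.2, 29819, 22449, 43403 and 38453 under Ac-6-FP. It was higher in the Ly6Chi library of every mouse by a log2 difference of 0.60 ± 0.08 (SE), or 1.51-fold (adjusted p = 0.000534). The ranges overlapped through the Ly6Clo libraries of mice 19 and 20.

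Bst2, whose product tethers budding virions to the cell, behaved otherwise. Normalized counts of Bst2 in Ly6Chi MoMac were 1166, 1283, 797, 1144 and 1680.4 in vehicle mice 11 to 15, and 1360.2, 902, 1151, 1598 and 1377 in Ac-6-FP mice 16 to 20. In Ly6Clo MoMac of the same mice, in the same order, the values were 1405, 1507, 701, 1912 and 958, and 1425, 1110.5, 1833, 1359 and 1019. The subsets overlapped throughout, 4 of 10 mice were higher in Ly6Chi, and the log2 difference was -0.06 ± 0.19 (SE) with a 95% interval of -0.48 to 0.35 (adjusted p = 0.889). This interval leaves out differences of the size seen for Ifitm3 and Ly6e.

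Of the OAS family, whose members make the oligoadenylates that switch on RNase L or are related to those that do, 4 of 5 genes were tested and Oas1a (chr5:120896256-120907525) was higher in Ly6Chi MoMac. In Ly6Chi MoMac, Oas1a reached normalized counts of 1892, 2294, 2749.6, 3265 and 3693 in the vehicle mice 11 to 15 and of 2226, 1901, 2959, 4637 and 3069 in the Ac-6-FP mice 16 to 20. Values in Ly6Clo MoMac were 1557, 1761, 2225, 672 and 1583 (vehicle), and 1794, 2128, 1091, 1352 and 1099 (Ac-6-FP). Oas1a was higher in Ly6Chi in 9 of 10 mice, mouse 17 being the exception, with a log2 difference of 0.93 ± 0.24 (SE) (adjusted p = 0.0461). This call was lost in 12 of 20 alternative settings, with adjusted p up to 0.127. Oas3 had a log2 difference of 3.04 ± 1.37 (SE) (unadjusted p = 0.0450, adjusted p = 0.282) and was at 0 in 5 libraries, while Oasl1 and Oasl2 had log2 differences of 1.59 and 0.30 and did not pass.

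In the group of other induced genes, 2 of 9 were higher in Ly6Chi MoMac, the first being Ifi27l2a (chr12:103433873-103443680). Normalized counts of Ifi27l2a in Ly6Chi MoMac were 3975, 4938, 2949.9, 4589.9 and 4929 in vehicle mice 11 to 15, and 4563, 3619, 3668, 7166 and 3746 in Ac-6-FP mice 16 to 20. The Ly6Clo libraries gave 1111, 3709, 1388, 2647 and 1623 in the vehicle mice and 1762, 1554, 1735, 1802 and 1298 in the Ac-6-FP mice. Ifi27l2a was lower in the Ly6Clo library of every mouse, and the Ly6Clo value of mouse 12 alone reached into the Ly6Chi range. The fold change was 2.45 and the log2 difference 1.29 ± 0.16 (SE) (adjusted p = 0.000256). The gene overlaps Ifi27 in the annotation, and whether reads were assigned by strand is not given in the sources used here.

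Xaf1 (chr11:72301629-72313733), whose product antagonizes the caspase inhibitor XIAP, was the other. For Xaf1, the Ly6Chi libraries of vehicle mice 11 to 15 gave normalized counts of 1169, 1373, 2572, 2233 and 2246, and those of Ac-6-FP mice 16 to 20 gave 1586, 1763, 1233, 2106 and 1466. The Ly6Clo libraries gave 960.1, 924, 1154, 846 and 1406 in the vehicle mice and 1238, 773, 987, 688 and 544 in the Ac-6-FP mice. All 10 mice had the higher value in Ly6Chi, with a log2 difference of 0.90 ± 0.20 (SE) (adjusted p = 0.0165), although the ranges overlapped. Trim30a, a ubiquitin ligase that restrains NF-kappaB signalling, had a log2 difference of 0.78 ± 0.24 (SE) in the same direction in 8 of 10 mice and did not pass (adjusted p = 0.0939). Slfn5 had 1.93 ± 0.76 (SE) (adjusted p = 0.208), and Rtp4, Samd9l, Slfn8, Ifi44 and Ifi35 lay between -1.27 for Samd9l and 1.28 for Rtp4 and did not pass. Rtp4 was at 0 in the Ly6Clo library of mouse 13, without which its log2 difference was 0.23 ± 0.28 (SE).

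**Figure D2:**
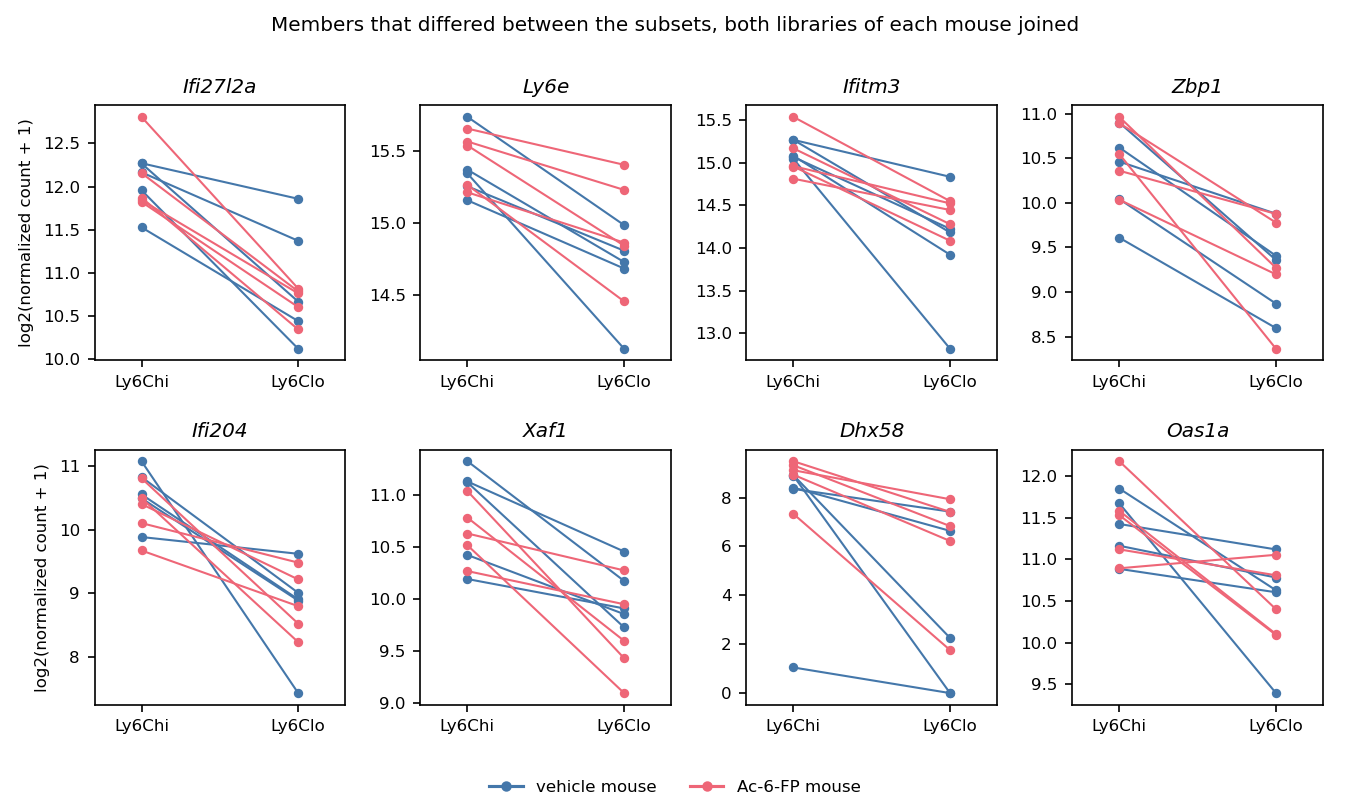
The 8 genes called between the subsets, as log2(normalized count + 1), with a line joining the Ly6Chi and the Ly6Clo library of each of 10 mice (vehicle in blue, Ac-6-FP in red, y axes not starting at 0). All lines fall from Ly6Chi to Ly6Clo except that of mouse 17 for Oas1a, and Dhx58 spans values from 0 upwards.

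Of the 3 genes of ISG15 conjugation, 0 passed between the subsets. Isg15, the ubiquitin-like protein that is coupled to other proteins during the response, gave the following values. Normalized counts of Isg15 in Ly6Chi MoMac were 606, 1209, 750.05, 537 and 778 in vehicle mice 11 to 15, and 379.7, 349, 418, 841 and 516 in Ac-6-FP mice 16 to 20. Values in Ly6Clo MoMac were 452, 1017, 1367, 647 and 449.9 (vehicle), and 499.5, 487, 492, 401 and 378 (Ac-6-FP). Its highest value was in the Ly6Clo library of mouse 13, 5 of 10 mice were higher in Ly6Chi, and the log2 difference was 0.07 ± 0.26 (SE) with a 95% interval of -0.48 to 0.63 (adjusted p = 0.903). Herc6, the ligase that couples ISG15 in the mouse, and Trim25 had log2 differences of 0.04 and 0.51, with intervals of -1.89 to 1.97 and -0.83 to 1.84. Without the Ly6Clo library of mouse 13 the log2 differences of Isg15, Herc6 and Trim25 were 0.18 ± 0.22 (SE), -0.12 ± 0.92 (SE) and 0.20 ± 0.53 (SE).

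The IFIT proteins bind viral RNA at its 5′ end, and 0 of 3 genes passed. For Ifit3, the Ly6Chi libraries of vehicle mice 11 to 15 gave normalized counts of 469, 597, 889, 627 and 3171, and those of Ac-6-FP mice 16 to 20 gave 667, 993, 1190.4, 888 and 648. Their counterparts from Ly6Clo MoMac read 859.9, 1106, 0, 648 and 671 under vehicle, and 1062, 614, 1.20, 449.7 and 862 under Ac-6-FP. The Ly6Chi library of mouse 15 was high and the Ly6Clo libraries of mice 13 and 18 were at or near 0, the rest of both subsets lay within the same range, and 5 of 10 mice were higher in Ly6Chi. The log2 differences were 1.99 ± 1.11 (SE) for Ifit3, 1.46 ± 0.90 (SE) for Ifit1 and -0.34 ± 0.44 (SE) for Ifit2 (adjusted p = 0.397, 0.449 and 0.700). Leaving out the Ly6Clo library of mouse 13 gave 1.12 ± 0.91 (SE), 0.51 ± 0.39 (SE) and -0.10 ± 0.39 (SE).

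Of the 4 genes of signalling and transcription, Irf7, the factor that amplifies interferon production, was higher in Ly6Chi in 9 of 10 mice, with a log2 difference of 2.00 ± 0.83 (SE) (unadjusted p = 0.0328, adjusted p = 0.239). Irf9 and Stat2, partners in the transcription complex, had 1.53 ± 0.80 (SE) and 2.01 ± 1.24 (SE). Irf7 and Irf9 were both at 0 in the Ly6Clo library of mouse 13, without which the log2 difference was 1.12 ± 0.38 (SE) for Irf7 (adjusted p = 0.117) and 0.63 ± 0.19 (SE) for Irf9 (adjusted p = 0.0753). Usp18, which removes ISG15 and blocks the receptor, was measured in every library. In Ly6Chi MoMac, Usp18 reached normalized counts of 679, 878, 1009, 966 and 1512 in the vehicle mice 11 to 15 and of 722, 752, 1137, 1576 and 928 in the Ac-6-FP mice 16 to 20. The Ly6Clo libraries gave 636, 626, 1989, 208 and 426 in the vehicle mice and 942, 1198, 1749, 392 and 1136 in the Ac-6-FP mice. Its Ly6Clo values spread more widely than its Ly6Chi values, with the highest in mouse 13, and the log2 difference was 0.37 ± 0.36 (SE) (adjusted p = 0.619). In this comparison over 10 mice 0 of the 4 passed with limma on the pairs or with edgeR, whereas Irf7 and Irf9 were called when the number of genes detected per library entered the limma fit, which called 5.68% of all genes higher.

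The Mx GTPases, the antiviral enzymes (Isg20, Rsad2 and Cmpk2) and the PARP9, PARP14 and DTX3L group had 0 called genes of 2, 3 and 3. Cmpk2, a nucleotide kinase next to Rsad2 on chromosome 12, had a log2 difference of 2.11 ± 0.86 (SE) at an unadjusted p of 0.0301 (adjusted p = 0.229). In Ly6Chi MoMac, Parp9 reached normalized counts of 315, 0, 221, 0 and 248 in the vehicle mice 11 to 15 and of 469.6, 274, 0, 1024 and 583 in the Ac-6-FP mice 16 to 20. Their counterparts from Ly6Clo MoMac read 569, 513, 0, 38.2 and 3.78 under vehicle, and 262, 479, 695, 678 and 169.8 under Ac-6-FP. For Parp9, an ADP-ribosyltransferase that acts with DTX3L, values ran from 0 to above 500 within both subsets, and the log2 difference was -0.87 ± 1.57 (SE) (adjusted p = 0.790), or -1.83 ± 1.47 (SE) without the Ly6Clo library of mouse 13, in which Parp9 was at 0. Parp9 and Dtx3l overlap in the annotation, as do Ifit1 with Ifit1bl1, Irf7 with Phrf1 and Ifi35 with Vat1, and the strand of counting is not given in the sources used here.

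**Figure D3:**
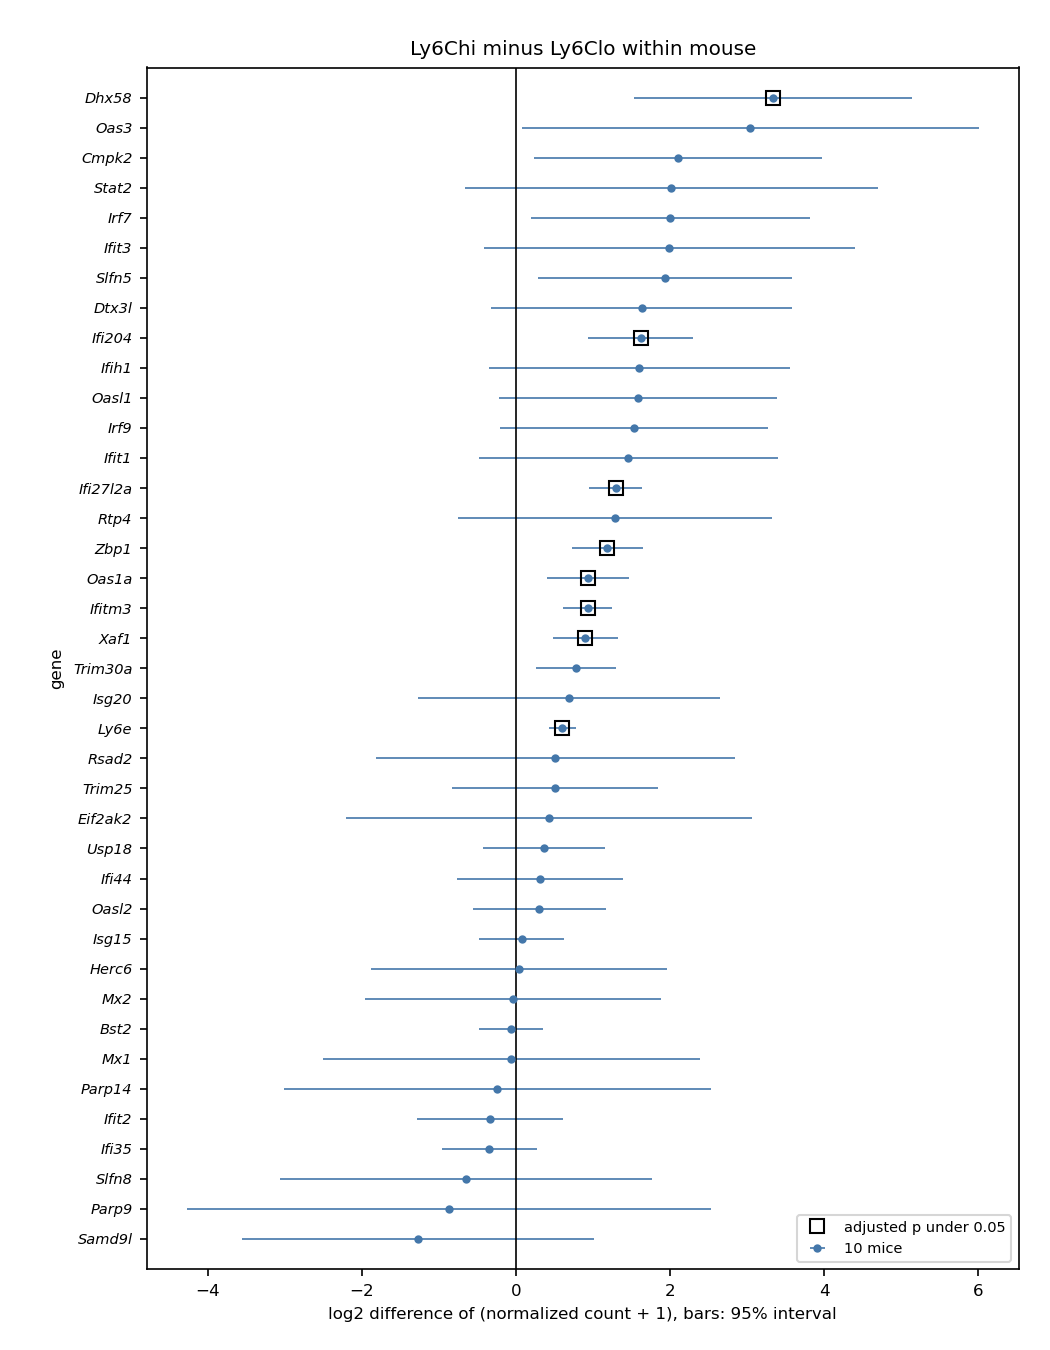
Log2 difference of (normalized count + 1), Ly6Chi minus Ly6Clo within mouse, for the 39 genes tested (points, with 95% intervals over 10 mice, squares for adjusted p under 0.05). The 8 called genes lie between 0.60 for Ly6e and 3.34 for Dhx58, and the widest intervals belong to genes with values of 0.

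Markers of other cell types also differed between the subsets. Of the 7 neutrophil markers, Ngp and Camp were higher in Ly6Clo and Mmp8 in Ly6Chi libraries (log2 differences -7.27, -6.95 and 4.85), and their sum was 8756 to 15065 in Ly6Chi and 615 to 27592 in Ly6Clo libraries. Sums for the 3 B cell markers were 0 to 45.6 and 0 to 446, for the 5 Kupffer cell markers 0 to 246 and 0 to 808, for the 3 endothelial markers 0 to 27.6 and 0 to 252, and for the 3 hepatocyte markers found 103 to 1201 and 1018 to 2184. Plasmacytoid dendritic cells, the main makers of type I interferon, were marked by sums of 8.90 to 1249.9 in Ly6Chi and 0 to 1032 in Ly6Clo libraries over 6 genes. The part of these transcripts in the differences above was not tested.

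Within each treatment, the difference between the subsets had the same sign for the genes called over all mice. In the 5 vehicle mice 3 of 39 genes were called higher in Ly6Chi MoMac (Ifi27l2a, Ifitm3 and Ly6e), against 0.806% of all genes, with a median log2 difference of 0.98, or 0.74 without the Ly6Clo library of mouse 13. In the 5 Ac-6-FP mice 2 of 39 were called higher (Ifi27l2a and Ly6e), against 0.754% of all genes, with a median of 0.68. For Ifitm3 the log2 difference was 1.15 ± 0.20 (SE) in vehicle mice (adjusted p = 0.00807) and 0.71 ± 0.20 (SE) in Ac-6-FP mice (adjusted p = 0.0920), and the change itself, -0.44 ± 0.28 (SE), did not pass (adjusted p = 0.830) and was -0.17 ± 0.18 (SE) without the Ly6Clo library of mouse 13. Without the Ly6Clo library of mouse 13, 4 genes were called in each treatment, against 0.858% of all genes in vehicle and 1.07% in Ac-6-FP mice, with Irf7 added in vehicle mice (log2 difference 2.02 ± 0.45 (SE), adjusted p = 0.0425) and Ifitm3 and Zbp1 in Ac-6-FP mice. Without mouse 15, 1 gene was called in vehicle mice, Ly6e, against 0.499% of all genes. In Ac-6-FP mice the call of Ly6e was lost when mouse 11, 12 or any of 14 to 20 was left out, which left 1 or 2 genes called.

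The second question was whether blocking MAIT cell activation with Ac-6-FP changed these genes within a subset. In Ly6Chi MoMac 0 of 39 genes were called by limma in either direction, and 0 by edgeR, against 0.0754% of all genes by limma and 0.0% by edgeR. Of the 39, 2 had an unadjusted p under 0.05 (5.13%, against 8.73% of all genes), Isg20 and Slfn8, which are named here after their values were seen. The median log2 difference, Ac-6-FP minus vehicle, was 0.06 against 0.35 for all genes tested. The log2 difference was above 0 for 23 of the 39 (59.0%, against 62.9% of all genes). Quantile normalization moved the median of all genes to -0.01 and that of the 39 to -0.05, and with the number of genes detected in the fit they were 0.01 and -0.03. The summed level of the plasmacytoid dendritic cell markers in Ly6Chi libraries had a median of 142 in vehicle and 599.8 in Ac-6-FP mice, with overlapping ranges, and 3 of the 5 markers tested had an unadjusted p under 0.05. The sum of the T and NK cell markers, low as it was, did not overlap (0 to 48.3 in vehicle and 76.5 to 139.7 in Ac-6-FP mice), and that of the neutrophil markers had medians of 13174 and 9689. Their part in the treatment differences was not tested.

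For several abundant genes the treatment difference in Ly6Chi MoMac was confined to a narrow interval. The log2 differences were -0.06 for Ifitm3 with a 95% interval of -0.37 to 0.25, 0.07 for Ly6e (-0.22 to 0.37), 0.09 for Bst2 (-0.40 to 0.57) and 0.06 for Ifi27l2a (-0.44 to 0.57). These intervals leave out a change of 1 on the log2 scale in either direction. For genes with values of 0 the intervals were wide, as for Parp9, with -3.35 to 8.19.

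Isg15 gave lower values under Ac-6-FP in both subsets, short of the threshold. In Ly6Chi MoMac its values in the Ac-6-FP mice had a median of 418 against 750.05 in vehicle mice, with overlap, and in Ly6Clo MoMac a median of 487 against 647. The log2 differences were -0.65 ± 0.29 (SE) in Ly6Chi (unadjusted p = 0.0524, limma adjusted p = 0.577) and -0.67 ± 0.34 (SE) in Ly6Clo MoMac (unadjusted p = 0.0813, adjusted p = 0.564), and without the Ly6Clo library of mouse 13 the latter was -0.43 ± 0.27 (SE).

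Normalized counts of Isg20 in Ly6Chi MoMac were 434, 260.1, 514, 428 and 584 in vehicle mice 11 to 15, and 623, 172, 186, 118 and 143 in Ac-6-FP mice 16 to 20. The Ly6Clo libraries gave 235, 631, 0, 948 and 365 in the vehicle mice and 95.5, 308, 441, 257 and 238 in the Ac-6-FP mice. For Isg20, an exonuclease that degrades viral RNA, 4 of the 5 Ac-6-FP libraries of Ly6Chi MoMac lay below every vehicle library and the remaining library, of mouse 16, above them all. The log2 difference in Ly6Chi was -1.08 ± 0.45 (SE) (unadjusted p = 0.0383, adjusted p = 0.544). Slfn8, of the Schlafen family, had 4.51 ± 1.85 (SE) (unadjusted p = 0.0376, adjusted p = 0.544), with 3 vehicle libraries of Ly6Chi MoMac at 0.

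**Figure D4:**
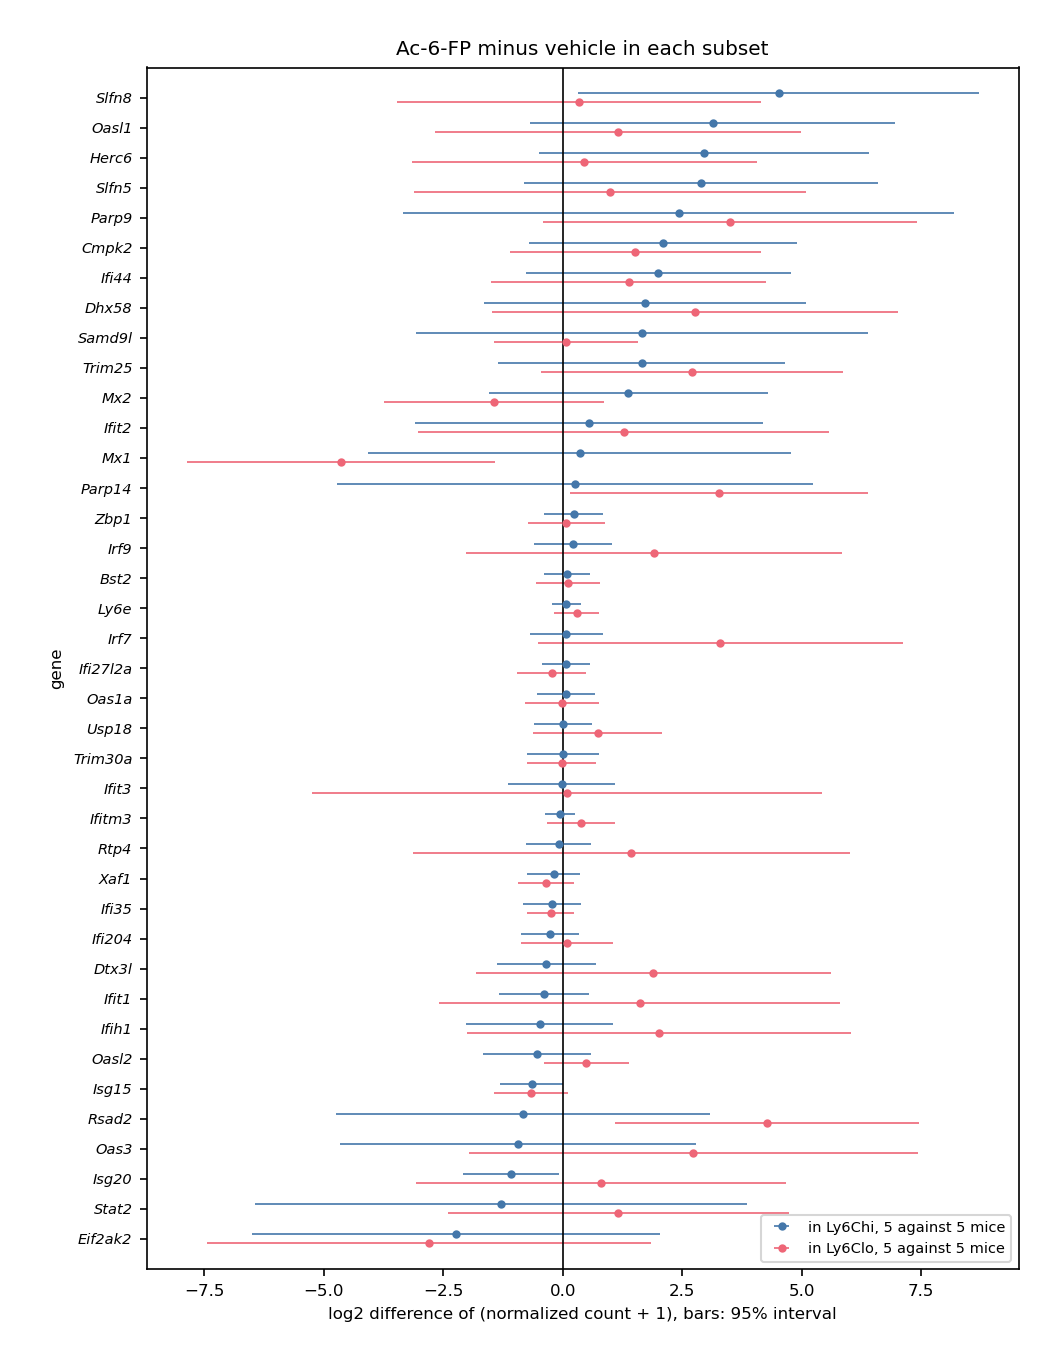
Log2 difference of (normalized count + 1), Ac-6-FP minus vehicle, for the 39 genes tested in Ly6Chi (blue) and Ly6Clo MoMac (red), with 95% intervals from 5 against 5 mice and genes ordered by the value in Ly6Chi. No gene reached an adjusted p under 0.05, and the intervals for Ifitm3, Ly6e and Bst2 are far narrower than those of genes with values of 0.

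In Ly6Clo MoMac, too, 0 of 39 genes were called by limma and 0 by edgeR, against 0.0522% of all genes by limma and 0.0% by edgeR. Of the 39, 3 had an unadjusted p under 0.05 (Mx1, Parp14 and Rsad2, named after their values were seen), which is 7.69% of them against 9.31% of all genes. The median log2 difference was 0.73 against 0.91 for all genes, and without the library of mouse 13 it was 0.14 against 0.35, with 5 genes at an unadjusted p under 0.05 (12.8%, against 7.07% of all genes). Its sign turned, to -0.09 against 0.06, when the number of genes detected per library entered the fit, and quantile normalization gave 0.18 against 0.02. Most of both medians was therefore lost with that library, in which 24 of the 40 genes were at 0. The T cell marker Cd3d was at 0 to 2.48 in the vehicle and at 8.57 to 119.5 in the Ac-6-FP libraries of Ly6Clo MoMac (limma adjusted p = 0.207). From vehicle to Ac-6-FP, the median summed level in Ly6Clo libraries went from 1553 to 15540 for neutrophils, from 16.0 to 356 for Kupffer cells, from 99.1 to 307 for B cells, from 110.4 to 204 for endothelial cells and from 8488 to 10984 for T and NK cells, with overlapping ranges. Of the markers of these cell types, 0 were called for this comparison. The part of these transcripts in the treatment differences was not tested.

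For Irf7, the Ly6Chi libraries of vehicle mice 11 to 15 gave normalized counts of 1999, 1872, 994, 2050.4 and 1788, and those of Ac-6-FP mice 16 to 20 gave 1666, 814, 2116, 2405 and 2542. In Ly6Clo MoMac of the same mice, in the same order, the values were 1077, 753, 0, 190.3 and 321, and 1137, 1779, 1237, 1219.8 and 1492. In Ly6Clo MoMac every Ac-6-FP library lay above every vehicle library, by a small margin between mouse 11 and mouse 16, whereas in Ly6Chi MoMac the groups overlapped fully. Irf7 was the only gene of the 39 whose groups did not overlap in Ly6Clo MoMac, against 1.5% of all genes, and 0 of the 39 had this in Ly6Chi MoMac, against 1.35%. The log2 difference in Ly6Clo was 3.30 ± 1.70 (SE) (unadjusted p = 0.0831, adjusted p = 0.564) and, without the library of mouse 13, 1.52 ± 0.48 (SE) (unadjusted p = 0.0127, adjusted p = 0.640). It did not pass in either fit.

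For Rsad2, the Ly6Chi libraries of vehicle mice 11 to 15 gave normalized counts of 92.0, 0, 44.1, 108 and 150.3, and those of Ac-6-FP mice 16 to 20 gave 38.1, 16.4, 0, 93.7 and 59.6. Values in Ly6Clo MoMac were 33.1, 0, 0, 0 and 49.1 (vehicle), and 161, 60.6, 35.9, 91.7 and 135 (Ac-6-FP). Rsad2, or viperin, makes a nucleotide that ends viral RNA chains. In Ly6Clo MoMac 3 of 5 vehicle libraries were at 0 and all 5 Ac-6-FP libraries were above 0, with a log2 difference of 4.27 ± 1.42 (SE) (unadjusted p = 0.0138, adjusted p = 0.528).

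In Ly6Chi MoMac, Mx1 reached normalized counts of 33.6, 206, 0, 0 and 0 in the vehicle mice 11 to 15 and of 0, 35.2, 0, 19.8 and 31.3 in the Ac-6-FP mice 16 to 20. In Ly6Clo MoMac of the same mice, in the same order, the values were 100.2, 159, 0, 26.7 and 112, and 0, 0, 0, 4.28 and 0. Mx1 ran the other way in Ly6Clo MoMac, with 4 of 5 vehicle libraries above 0 and 4 of 5 Ac-6-FP libraries at 0. The log2 difference was -4.64 ± 1.44 (SE) (unadjusted p = 0.00977, adjusted p = 0.528) and, without the library of mouse 13, -5.92 ± 0.96 (SE) (unadjusted p = 0.000213, adjusted p = 0.227). Log2 differences of opposite sign for Mx1 and Rsad2 were thus measured in the same libraries.

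**Figure D5:**
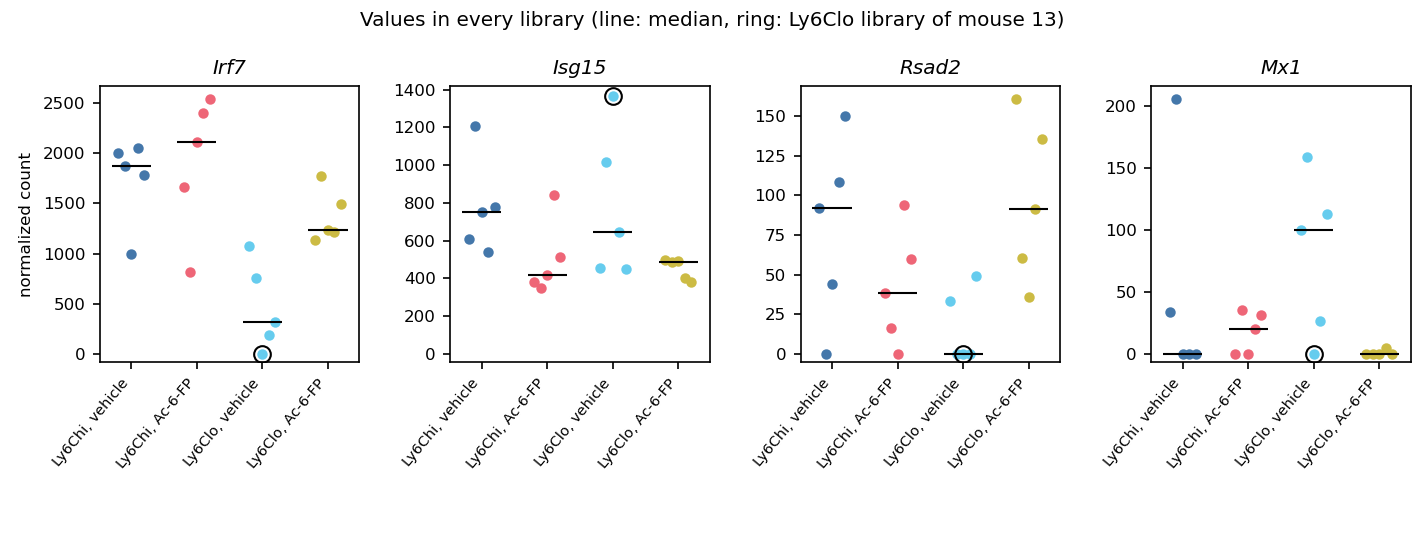
Normalized counts of Irf7, Isg15, Rsad2 and Mx1 in each library (points) of the 4 groups of 5 mice, with the group median as a line and a ring on the Ly6Clo library of vehicle mouse 13. For Irf7 in Ly6Clo MoMac the Ac-6-FP libraries lie from 1137 to 1779 and the vehicle libraries from 0 to 1077, and the other groups shown for Irf7 in Ly6Chi overlap.

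The study's main contrast asked whether the change with Ac-6-FP differed between the subsets. Tested over the within-mouse differences of 5 against 5 mice, 0 of 39 genes were called by limma and 0 by edgeR, against 0.0% of all genes by each. Of the 39, 3 had an unadjusted p under 0.05 by limma, namely Rsad2 (-5.11 ± 1.65 (SE)), Mx1 (4.99 ± 1.83 (SE)) and Irf7 (-3.22 ± 1.46 (SE)), each with an adjusted p of 0.830. These are 7.69% of the 39, against 4.87% of all genes. Without the Ly6Clo library of mouse 13, Irf7 had -1.64 ± 0.60 (SE) (adjusted p = 0.820). The median was -0.22 against -0.27 for all genes, and -0.03 against 0.01 without the Ly6Clo library of mouse 13.

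By the criterion given in the methods of the study, which takes the log2 ratio of each Ac-6-FP library to the mean of the vehicle libraries of its subset and compares the subsets over 5 mice (fold change 1.5 or more, unadjusted p no higher than 0.05), 9 of the 39 genes qualified. The criterion was applied here to log2(normalized count + 1) of the 17248 genes tested, whereas the study first kept genes by their FPKM over intergenic background. The signed change, Ac-6-FP relative to vehicle, was higher in Ly6Chi than in Ly6Clo MoMac for Herc6, Mx1, Samd9l and Slfn8 and lower for Ifit1, Irf7, Irf9, Rsad2 and Rtp4. Of all genes, 24.3% met the same criterion, so that the share among the 39 is near the background. The criterion does not count the spread between vehicle mice. Without the Ly6Clo library of mouse 13, 7 of the 39 met the criterion, against 20.1% of all genes, and Ifit1, Irf9 and Rtp4 were not among them while Ifit2 was.

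The other genes of the pathway, taken from a list of 59, placed the 40 genes in context. Of the 17 type I interferon genes, 0 reached the level needed for testing. Their summed normalized count was at most 16.1 in any library, but how reads shared among these closely related genes were counted is not given in the sources used here. Of the 7 genes for the receptor, its kinases and its feedback inhibitors, 0 were called between the subsets or between treatments. Ifnar1, a chain of the receptor, had a log2 difference of 1.77 ± 0.91 (SE) between the subsets (adjusted p = 0.353), or 1.04 ± 0.71 (SE) without the Ly6Clo library of mouse 13.

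Of 5 other interferon regulatory factors and 11 tested sensors and adaptors, 0 were called in either comparison. Across all genes, 5.19% were called between the subsets in either direction. Among the 17 tested genes for the interferon gamma receptor and its induced genes, 1 was called between the subsets, the receptor chain Ifngr1, which was lower in Ly6Chi MoMac by a log2 difference of -0.58 ± 0.14 (SE) (adjusted p = 0.0296) in 9 of 10 mice. Its values were 3903 to 10370.03 in Ly6Chi and 6495 to 16749 in Ly6Clo libraries. Gbp3, a guanylate-binding protein gene of the same list, ran the other way, with values of 1007 to 2202 in Ly6Chi and 0 to 716 in Ly6Clo libraries that did not overlap, and a log2 difference of 2.84 ± 0.78 (SE) (adjusted p = 0.0577). Every Ly6Chi library lay above every Ly6Clo library for 0.429% of all genes tested. With the Ly6Clo library of mouse 13 left out, 4 genes of this list were called, Gbp3 as higher in Ly6Chi (2.04 ± 0.40 (SE), adjusted p = 0.00921) and Gbp4, Ifngr1 and Psmb8 as lower. The share of all genes called in either direction was then 6.74%. The Gbp genes are close paralogs, and how shared reads were counted is not given in the sources used here. For Ac-6-FP against vehicle 0 of the 40 tested genes of the list were called in either subset. In Ly6Clo MoMac 35 of the 40 log2 differences were above 0 (87.5%, against 70.5% of all genes), with a median of 1.80 against 0.91 for all genes. Of the 40, 11 had an unadjusted p under 0.05 (27.5%, against 9.31% of all genes). Leaving out the library of mouse 13 gave 30 above 0, a median of 0.51 against 0.35 for all genes, and 6 with an unadjusted p under 0.05 (15.0%, against 7.07%). In Ly6Chi MoMac 27 were above 0 (67.5%, against 62.9% of all genes) and 2 had an unadjusted p under 0.05 (5.0%, against 8.73%). The nearest was Socs3, a feedback inhibitor, in Ly6Clo MoMac (log2 difference 1.40 ± 0.21 (SE), adjusted p = 0.0970, or 0.154 without the library of mouse 13).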

How the data were processed

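RNA was measured in 20 libraries, grouped by their labels into 4 groups of 5. The authors aligned reads of sorted cells with STAR 2.4.0 to the mm10 genome, took counts over the constitutive parts of FAST DB genes and deposited counts divided by a DESeq2 size factor per library. These deposited signal values are called normalized counts here. Dividing them by the step of each library gave whole reads for 99.98% of values above 0 (tolerance 0.006). Genes with a mean of at least 10 in 1 or more groups (17248) were tested as log2(normalized count + 1) with limma 3.58.1 in R 4.3.3 and Benjamini-Hochberg adjustment over all genes. The subsets were compared over within-mouse differences, and treatments over 5 against 5 mice. The pairing comes from the labels, which number the libraries of both subsets 11 to 20, and from the paired test in the study's methods. That equal numbers are 1 mouse is not stated outright. The correlation of their residuals was above 0 in 10 of 10 mice but low, with a median of 0.0338 and a highest value of 0.25 in mouse 11. For libraries of different mice the median was -0.00319. Because mice are the replicates, p-values measure the spread between animals. An alternative used edgeR 4.0.16. Python 3.11.15, numpy 2.4.6, pandas 2.3.3 and scipy 1.17.1 were used.

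Tested on simulated data for 17248 genes with 200 genes changed by 2 on the log2 scale, at a dispersion of 0.1, limma recovered 95.5% between subsets, 91.5% between treatments in Ly6Chi and 62% for the difference of changes. Genes with values of 0 can spread more than this, as did Parp9 between treatments in Ly6Chi (SE 2.55), and these rates do not hold for such genes. Treatments in Ly6Clo were not simulated. Reads carry no molecular identifiers, so limits for a value of 0 (3 reads) cover counting error only. The 40 genes were matched by symbol alone, but they and the lists were chosen with earlier results of these data known. Every gene of the list was counted. Values in every library were given for genes called in a comparison and for 1 to 3 genes per role with the highest mean per kilobase of GENCODE M21 exon. The symbols Lyz2, Serpina1a and Gbp6, from lists of markers and of other pathway genes, were not matched and are not analysed here. The result for 1 other gene of the pathway is not reported here.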

Additional observations from a re-analysis of the deposited data

Results flagged for a closer look

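Single libraries that stood apart from their group of 5 by Dixon's test were looked for in the 17 genes whose values are given in every library. They were found in 7 of 68 groups, and chance alone flags about 1 in 20. In Ly6Chi MoMac of Ac-6-FP mice, mouse 19 had an Ifi27l2a value of 7166 against 3619 to 4563 in the others, and mouse 16 an Isg20 value of 623 against 118 to 186. In Ly6Chi MoMac of vehicle mice, Irf7 was at 994 in mouse 13 against 1788 to 2050.4, Ifit3 at 3171 in mouse 15 against 469 to 889, and Mx1 at 206 in mouse 12 against 0 to 33.6. In Ly6Clo MoMac, Usp18 was at 1989 in vehicle mouse 13 against 208 to 636, and Mx1 at 4.28 in Ac-6-FP mouse 19 against 0 in the other 4, where any value above 0 in the remaining library would have stood apart. Mouse 13 and mouse 19 each account for 2 of these 7 values.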

How the results depend on the processing

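The count of 8 genes called between the subsets over 10 mice ranged from 6 to 12 over 20 alternatives, and Ifi204, Ifi27l2a, Ifitm3, Ly6e, Xaf1 and Zbp1 were called in each of them. The 12 were reached when genes detected per library entered the fit, with Dtx3l, Irf7, Irf9 and Rtp4 added, and the share of all genes called higher then rose from 1.76% to 5.68%. Without the replicate block, that is, with the libraries treated as unpaired, 7 genes were called, while the share of all genes called higher was 1.95%. In vehicle mice the count of 3 became 5 when the filter required a group mean of 100, 5 with quantile normalization, 10 when genes detected per library entered the fit, and 0 with edgeR without mouse 15 (chosen after seeing the data), and ranged from 1 to 4 when a mouse was left out. The share of all genes called higher in vehicle mice was 0.806%, and 2.39%, 1.20%, 5.21% and 0.220% under these 4 settings in turn. In Ac-6-FP mice the count of 2 became 1 without a filter, 4 with quantile normalization, 1 with edgeR, 4 without the Ly6Clo library of mouse 13 and 1 with edgeR without mouse 15, and ranged from 1 to 4 when a mouse was left out. The share of all genes was 0.754% there, and 0.398%, 1.10%, 0.377%, 1.07% and 0.348% under these 5 settings in turn. Counts of 0 for Ac-6-FP against vehicle, and for the difference of changes, were 0 under every alternative run. The median for the difference of changes was -0.22, and -0.73 (without mouse 12) to -0.025 (without mouse 13) when a mouse was left out, and its sign turned with quantile normalization (0.025) and with edgeR without mouse 15 (0.15). By the study's criterion 9 genes became 14 with a pseudocount of 0.1 (26.1% of all genes) and 5 with p-values adjusted over all genes. The share of all genes after that adjustment is not given here, so the count of 5 cannot be set against a background. The causes were not tested. Depth bounds a value of 0 only to within 3 reads.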
